A study of Homo sapiens with 6 samples.

Results

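The histone genes encode the proteins that package DNA, and their transcripts were followed in MDA-MB-231 cells, a triple negative breast cancer cell line, after transfection with precursors of 2 microRNAs. The members are the protein-coding genes whose symbols belong to the histone families H1, H2A, H2B, H3 and H4 and their variants, found through the transcript accession of each array probe and RefSeq (GRCh38.p14). RefSeq lists 94 such genes, 83 had a matched probe, and 65 of these were bright enough to be tested, among 11974 genes tested in all. The groups were cells given the hsa-miR-205-5p precursor, cells given the hsa-miR-214-3p precursor and cells given a scrambled (negative) control precursor, all in the same cell line and all collected 72 h after reverse transfection. Each group had 2 one-color Agilent arrays. The labels do not state whether the arrays of a group came from separate cultures, so the p-values measure the spread between arrays, which may be technical. The cells carry an added microRNA rather than a changed gene, and the series holds 1 cell line.

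Histones H2A, H2B, H3 and H4 form the octamer around which DNA is wrapped, and H1 binds the linker DNA between octamers. Most histone genes lie in clusters, lack introns and are transcribed mainly in S phase, and their mRNAs normally end in a stem-loop in place of a poly(A) tail. The variant genes, such as H2AX, H2AZ1 and H3-3A, lie outside the clusters, and most give polyadenylated mRNA throughout the cell cycle. The labeling kit named in the labels primes with oligo-dT, so for the cluster genes these arrays see mainly the polyadenylated share of the transcripts. How that share differed between groups was not tested. Many cluster genes are near copies of each other, and since the scanner files hold no probe sequences, binding of a probe to the transcripts of a copy was not tested either.

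The microRNAs set the 3 groups apart, and their mature sequences from RefSeq (GRCh38.p14) are given 5′ to 3′ with the seed, bases 2 to 8, in capitals. hsa-miR-205-5p lies on the plus strand at chr1:209432166-209432187 and hsa-miR-214-3p on the minus strand at chr1:172138816-172138837. The seeds have different letters.
hsa-miR-205-5p: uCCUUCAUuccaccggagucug
hsa-miR-214-3p: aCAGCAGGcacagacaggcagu

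H2AC6 and H2BC4, an H2A gene and an H2B gene of the chromosome 6 cluster, start back to back, and both were lower with hsa-miR-205-5p. The 245 bases between their starts are therefore shared, and are shown because both genes changed together (GRCh38.p14, chr6:26123927-26124171, plus strand, which is the strand of H2AC6). Capitals mark matches on either strand to CCAAT (the CCAAT box), TATAAA (the TATA box), ATTTGCAT (the octamer of H2B promoters), GGTCCG (the core of an H4 promoter element) and AAACACA (the H1 box), and no 2 matches overlap. CCAAT occurs once on the printed strand and 2 times on the other, the octamer occurs once on the other strand, and TATAAA starts 31 bases before the start of H2AC6.
H2BC4/H2AC6: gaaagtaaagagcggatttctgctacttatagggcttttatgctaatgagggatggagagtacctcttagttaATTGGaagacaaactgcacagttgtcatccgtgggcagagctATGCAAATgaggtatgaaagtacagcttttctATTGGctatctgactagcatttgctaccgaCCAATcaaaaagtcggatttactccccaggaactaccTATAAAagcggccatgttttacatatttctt

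The 250 bases before the start of H4C16, H3C4 and H3C6 are shown in the same way because these, besides H2BC4, were the cluster genes called lower by at least 2-fold with hsa-miR-205-5p, against the control, against hsa-miR-214-3p, or against both. H4C16 lies on chromosome 12 (chr12:14771132-14771381, minus strand), H3C4 on chromosome 6 (chr6:26197287-26197536, minus strand) and H3C6 on chromosome 6 (chr6:26224885-26225134, plus strand). Genes were classed by symbol, so H4C16, which lies outside the clusters, is counted among the cluster genes throughout. RefSeq gives H3C4 and H3C6 2 starts each, and the one nearer the gene's end was taken. The outer start of H3C4 is also the start of H2AC7 on the same strand, so these annotations overlap.
H4C16: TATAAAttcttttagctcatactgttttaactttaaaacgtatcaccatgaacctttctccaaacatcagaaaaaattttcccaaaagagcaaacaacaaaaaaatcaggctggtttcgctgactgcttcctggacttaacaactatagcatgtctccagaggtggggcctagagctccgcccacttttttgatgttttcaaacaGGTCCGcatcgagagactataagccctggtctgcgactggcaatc
H3C4: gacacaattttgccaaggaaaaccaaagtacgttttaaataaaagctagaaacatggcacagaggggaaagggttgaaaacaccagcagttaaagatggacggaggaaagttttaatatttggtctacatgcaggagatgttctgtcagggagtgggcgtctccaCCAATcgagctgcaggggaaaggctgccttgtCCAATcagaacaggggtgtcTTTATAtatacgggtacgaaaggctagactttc
H3C6: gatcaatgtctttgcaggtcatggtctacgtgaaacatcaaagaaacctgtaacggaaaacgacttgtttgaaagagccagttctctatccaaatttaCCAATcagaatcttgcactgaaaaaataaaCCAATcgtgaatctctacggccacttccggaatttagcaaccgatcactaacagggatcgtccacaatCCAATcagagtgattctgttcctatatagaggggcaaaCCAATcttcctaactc

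The letters differed by family. GGTCCG was found before 12 of the 13 H4 cluster genes with a promoter sequence (92.3%), H4C16 included, against 11.3% of 27305 genes of any kind. CCAAT was found before all cluster genes of H1, H2A, H2B and H3 with a sequence (6, 16, 18 and 12 genes) but before 3 of the 13 H4 genes, against 37.0% of all genes. The octamer was found before 14 of 18 H2B and 11 of 16 H2A cluster genes and before none of the 13 H4 genes, against 2.03% of all genes. AAACACA was found before 6 of 6 H1 cluster genes and 5.95% of all genes, and TATAAA before 3 of 6 H1, 12 of 16 H2A, 12 of 18 H2B, 10 of 12 H3 and 7 of 13 H4 cluster genes, against 13.0% of all genes. For a gene with several starts, a match before any of them was counted. A match of letters is a description and not a bound site.

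The 6 arrays shared 1 slide and 1 scan. The arrays of a group lay side by side on the slide, so that position and group cannot be told apart. Of 58717 noncontrol spots, the share well above background was 37.8% and 35.4% for hsa-miR-205-5p, 39.5% and 38.5% for hsa-miR-214-3p and 40.7% and 42.2% for the control, and no spot was saturated. The 75th percentile of the processed signal was 41.7 and 35.1, 48.4 and 36.6, and 50.3 and 58.0 in the same order, so the hsa-miR-205-5p arrays, on which more histone values were lower, held the fewest spots above background. The part of that in the histone values was not tested. Over all genes the median absolute difference between the 2 arrays was 0.17 log2 units with hsa-miR-205-5p, 0.11 with hsa-miR-214-3p and 0.34 in the control. VIM, CD44, EGFR, CAV1 and AXL, genes that mark this mesenchymal line, were well above background on all 6 arrays, and ESR1 and PGR, the hormone receptors absent from triple negative lines, on none. ERBB2, CDH1 and EPCAM, listed as low or absent, were nevertheless above background on all 6. Of the genes of other cell types PTPRC was above it on 2 arrays, PECAM1 on 3 and COL1A1 on none, and their part in the results was not tested.

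Of the 83 histone genes with a probe, 18 did not pass the filter and were not tested, among them the testis and oocyte linker genes H1-6, H1-7 and H1-8, the H2A.B genes H2AB1, H2AB2 and H2AB3, and the cluster genes H1-1, H1-5, H2AC16, H2AC25, H2BC1, H2BC26, H2BC7, H3C11, H4C5 and H4C7. H2AP and H2BW1 were also below it. A further 11 had no matched probe. These were H2AC18, H2AL3, H2BC12L, H2BK1, H2BN1, H3-3B, H3-7, H3C14, H3Y1, H3Y2 and H4C14. H2AC18, H3C14 and H4C14 are near copies of H2AC19, H3C15 and H4C15, which did have one. The tested genes comprised 56 cluster genes and 9 variants, and 63 of the 65 were well above background on all 6 arrays. The 65 passed a filter that asks for signal in both arrays of any group, so they are the detected members and not all histone genes.

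**Figure D1:**
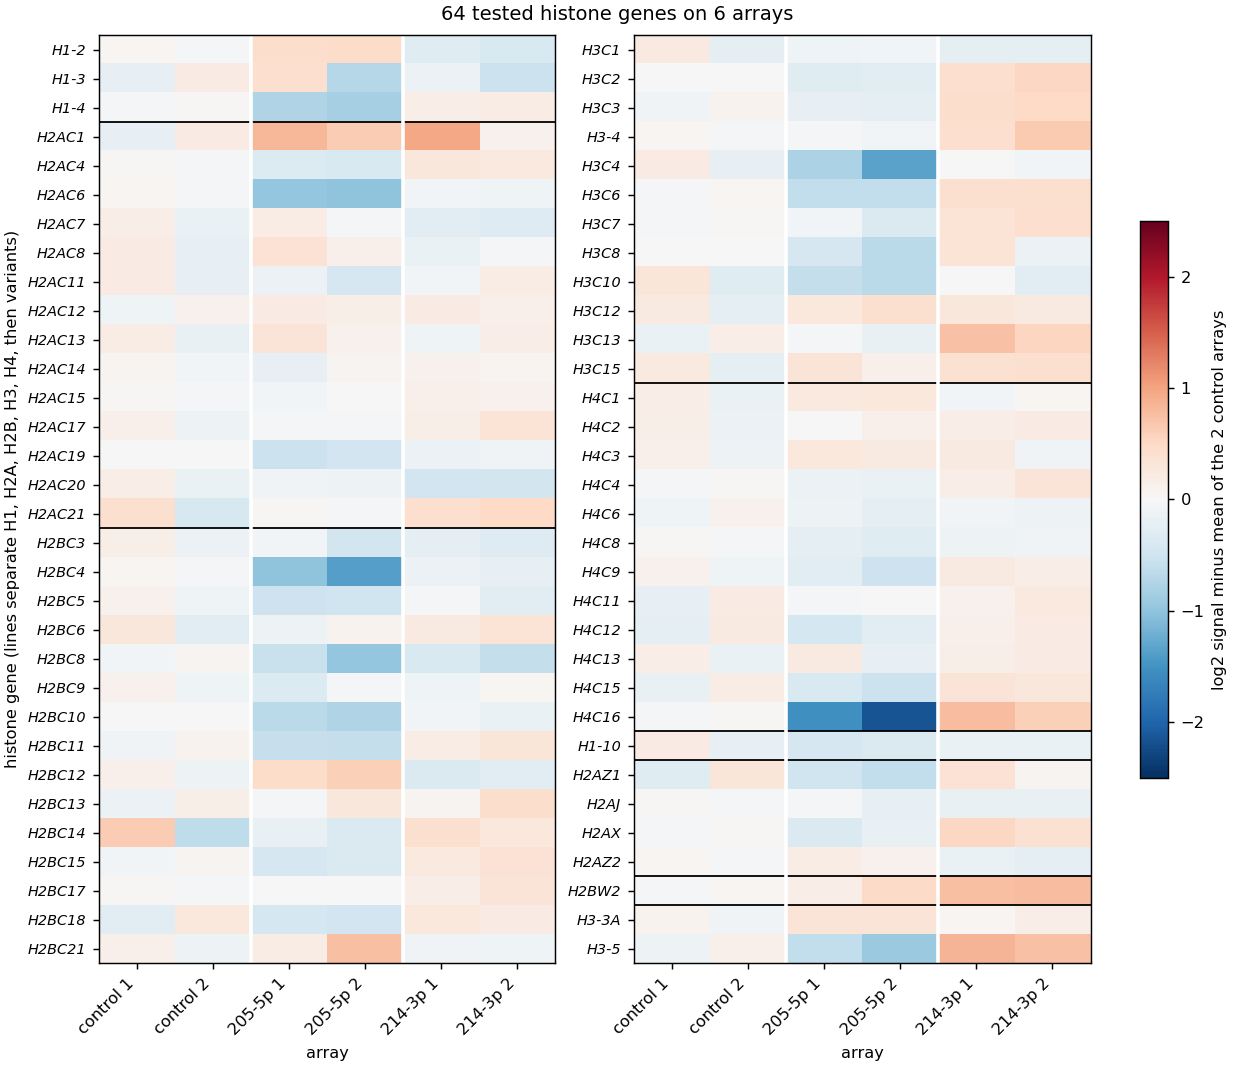
Rows are 64 of the 65 tested histone genes, columns the 6 arrays, and color the log2 signal minus the mean of the 2 control arrays. H4C16, H2BC4, H3C4 and H2AC6 are the darkest blue rows with hsa-miR-205-5p, the same 2 columns are red in H1-2, H2AC1, H2BC12 and a few other rows, and the hsa-miR-214-3p columns are mostly pale.

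The first question was which histone transcripts changed when hsa-miR-205-5p was raised. Against the scrambled control 3 of 65 tested genes were lower by the rule of adjusted p under 0.05 and at least 2-fold, H4C16, H2BC4 and H3C4, and 0 were higher. Left out in turn, hsa-miR-205-5p replicate 2 brought the 3 to 0, and either hsa-miR-214-3p array brought it to 1. Over all genes tested that rule called 7.98% lower and 4.78% higher, so the share of the histone genes called lower (4.62%) was below the background. With no limit on fold, 8 of 65 were lower (12.3%) against 11.3% of all genes, and 0 were higher against 9.81%. At an unadjusted p under 0.05 the counts were 14 lower and 2 higher of 65, against 18.9% and 20.6% of all genes. The median log2 fold change of the histone genes was -0.19, against 0.08 over all genes, and 47 of 65 values were below 0. That median was -0.57 with arrays scaled to their median and -0.36 after another background correction (normexp), against -0.31 and -0.02 over all genes. With no filter on dim probes it was -0.05, against 0.38 over all genes. Changes were mostly small, with 72.3% of histone genes within 0.5 log2 units of 0, against 53.5% of all genes. In cultured cells fewer cells in S phase and less histone RNA per cell cannot be told apart from these signals.

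The second comparison, hsa-miR-214-3p against the scrambled control, gave 0 histone genes called lower and 0 called higher with limma, where all genes gave 2.03% and 1.09%. With no limit on fold the counts were again 0 and 0, against 2.09% and 1.21%. At an unadjusted p under 0.05, 2 histone genes were lower and 9 higher of 65, against 13.4% and 10.8% of all genes, and the test that the study's methods name, at the limits they give, also called 0 and 0. All genes divided into 243 lower and 131 higher calls, and into 278 and 44 with scaling to the median. The median log2 fold change was 0.17 against -0.01 over all genes, 40 of 65 values were above 0, and 89.2% lay within 0.5 log2 units of 0 against 68.6% of all genes. That median was 0.03 without scrambled control replicate 2, 0.00015 when arrays were scaled to their median and -0.04 after another background correction (normexp), so no direction is drawn from it.

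The direct comparison of hsa-miR-205-5p with hsa-miR-214-3p called 5 of 65 lower, H4C16, H3-5, H3C4, H2BC4 and H3C6 (7.69%, against 11.3% of all genes), and 0 higher (against 9.18%). The count of 5 became 2 without hsa-miR-205-5p replicate 2 and 1 without either hsa-miR-214-3p array. Over all genes the calls divided into 1352 lower and 1099 higher, and into 1801 and 638 when arrays were scaled to their median, as against the control they divided into 956 and 572, and 1876 and 212. With no limit on fold, 18 were lower (27.7%, against 16.0% of all genes) and 2 were higher, H1-2 and H2BC12 (3.08%, against 17.9%). H2BC12 is counted by its brightest probe, and its second probe had the opposite sign. The median was -0.28 against 0.12 over all genes. This comparison and the first share the hsa-miR-205-5p arrays, and the first and the second share the control arrays, so the values below are given side by side and not as independent support.

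**Figure D2:**
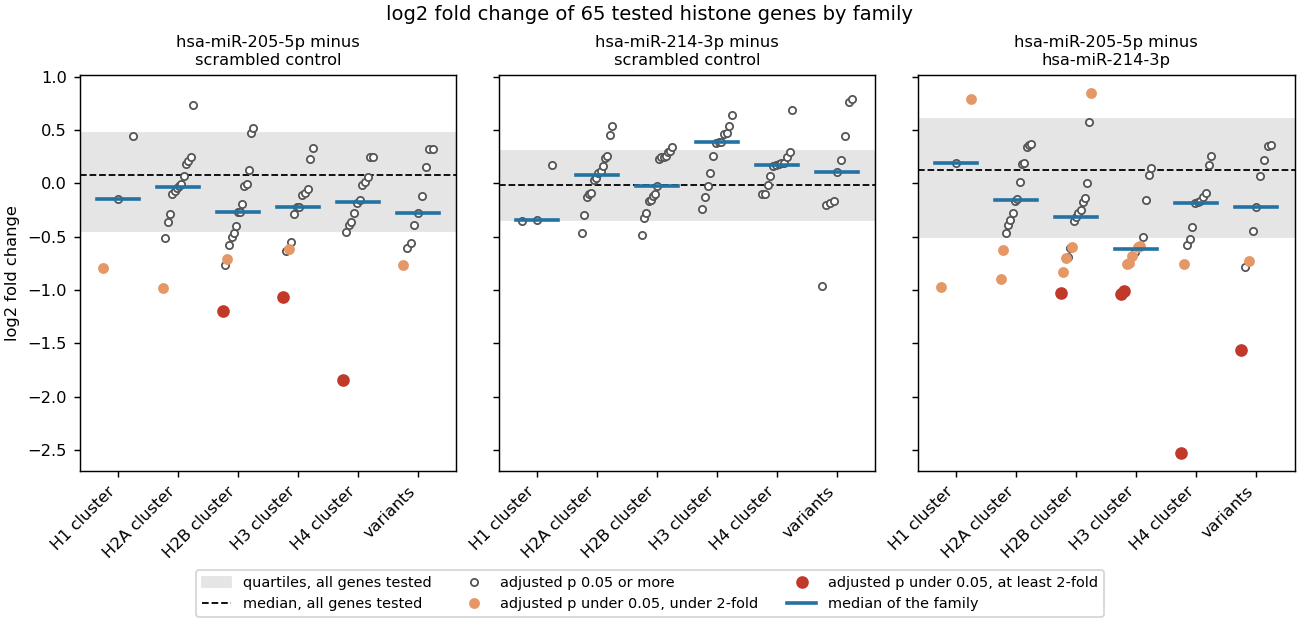
Each point is a tested histone gene and its height the log2 fold change in 1 of the 3 comparisons, with the family median as a blue line and the quartiles (gray band) and median (dashed line) of all 11974 genes. Filled points have an adjusted p under 0.05. The lowest points are H4C16 at -1.84 and -2.53, no point is filled in the hsa-miR-214-3p panel, and 7 of 12 H3 cluster genes are filled in the last panel.

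By family, the medians after hsa-miR-205-5p were -0.15 for the 3 H1, -0.04 for the 14 H2A, -0.27 for the 15 H2B, -0.22 for the 12 H3 and -0.17 for the 12 H4 cluster genes, and -0.28 for the 9 variants. Each of these medians was below 0, and below that of all genes, under all 6 normalizations run. After hsa-miR-214-3p the H3 cluster median was 0.38 and stayed above 0 under all 6 normalizations (0.20 to 0.42), and the H1 median of -0.34 stayed below it (-0.51 to -0.31). The medians of the H2A (0.07), H4 (0.18) and variant (0.11) genes changed sign with the normalization, and that of H2B was -0.02. Between the 2 microRNAs the H3 cluster genes stood lowest, with a median of -0.62 (-0.84 to -0.59 over the normalizations), 7 of 12 being lower at any fold (against 16.0% of all genes). The count of 7 is that of the fit of all 6 arrays. H3C6, with the smallest adjusted p of the 7, depended on single arrays, as given below. The H1 (0.19) and variant (-0.22) medians of this comparison changed sign with the normalization.

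Linker histones. Of the 3 cluster H1 genes tested, H1-4 was lower with hsa-miR-205-5p while H1-2 was higher than with hsa-miR-214-3p. The log2 signal of H1-4, in units relative to each array's 75th percentile as for all levels here, was 5.25 and 5.18 with hsa-miR-205-5p, 6.16 and 6.20 with hsa-miR-214-3p and 5.97 and 6.04 in the control. Both hsa-miR-205-5p arrays were thus below the other 4. H1-4 fell 1.74-fold against the control (log2 -0.80 ± 0.15 SE, limma adjusted p = 0.0234) and 1.96-fold against hsa-miR-214-3p (adjusted p = 0.0097). H1-2 read 8.15 and 8.17 with hsa-miR-205-5p, 7.41 and 7.33 with hsa-miR-214-3p and 7.77 and 7.67 in the control, so the groups did not overlap. It was 1.74-fold higher with hsa-miR-205-5p than with hsa-miR-214-3p (log2 0.80 ± 0.15, adjusted p = 0.0162), but that test was missed after normexp (0.61, adjusted p = 0.0797), with scaling to the median (0.57, adjusted p = 0.0833) and with no filter on dim probes (adjusted p = 0.0997). It was also missed without any 1 of the 4 arrays of these groups (adjusted p from 0.0729 to 0.136). Against the control its difference was 0.45 (adjusted p = 0.0942). H1-3 lay between 0.14 and 1.26 on the 6 arrays with overlapping groups.

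The linker variant H1-10 passed no test, and differed from the control by -0.39 and -0.17 (adjusted p = 0.21 and 0.655).

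Core histone H2A. Of the 14 tested H2A cluster genes H2AC6 was the one that passed the test against the control. It read 1.43 and 1.39 with hsa-miR-205-5p, 2.31 and 2.29 with hsa-miR-214-3p and 2.44 and 2.33 in the control. The hsa-miR-205-5p arrays lay below the other 4, which were close together. H2AC6 fell by 0.98 on the log2 scale against the control (1.97-fold, SE 0.15, adjusted p = 0.0149), just under the 2-fold limit, and by 0.89 against hsa-miR-214-3p (adjusted p = 0.012). A second, dimmer probe of the gene gave -0.70 and missed the test (adjusted p = 0.0983). H2AC4 was lower with hsa-miR-205-5p than with hsa-miR-214-3p (-0.62, adjusted p = 0.0298), and its value of -0.36 against the control missed the test (adjusted p = 0.141). H2AC1, a gene known from testis, had the highest value of any member with hsa-miR-205-5p (0.74), but its arrays spread from -1.31 to -0.13 over the 3 groups, 1 of the 2 hsa-miR-205-5p arrays was not well above background, and the adjusted p was 0.165.

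**Figure D3:**
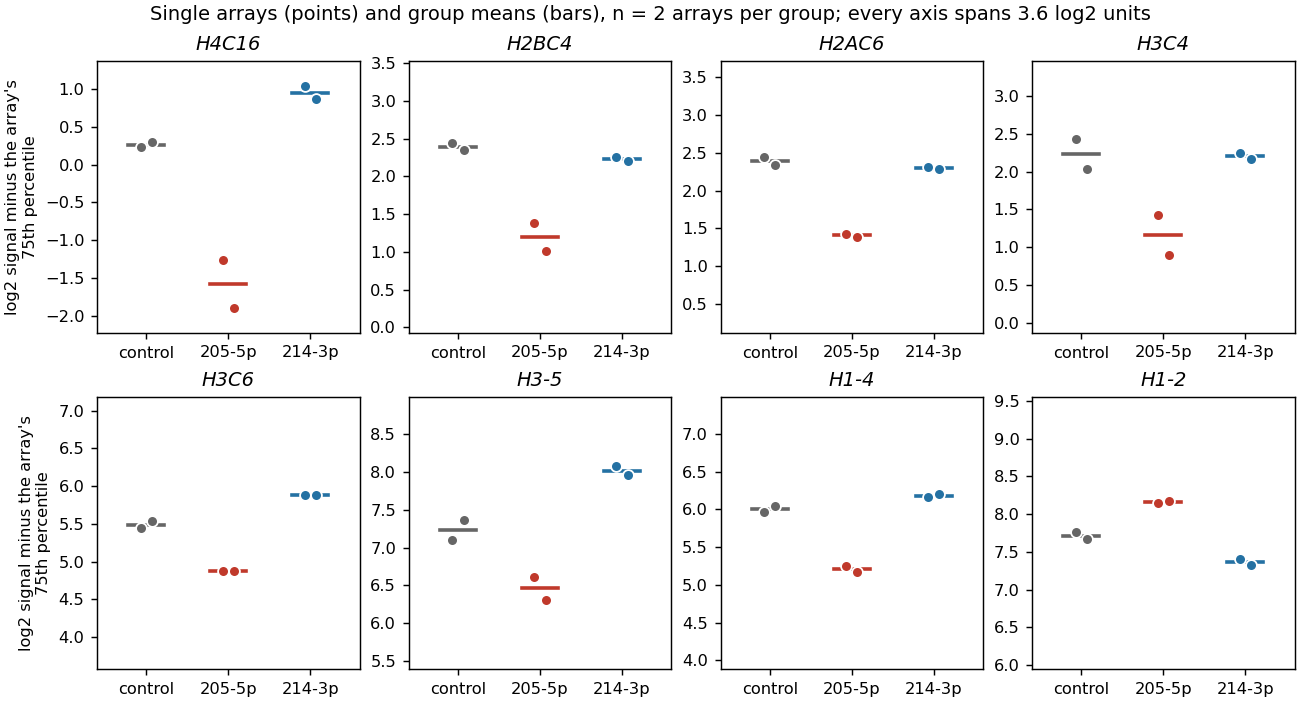
Points are single arrays and bars the means of the 2 arrays of a group, in log2 signal minus the array's 75th percentile, with axes of equal span for 8 genes. In 7 genes both hsa-miR-205-5p arrays lie below the other 4, and in H1-2 both lie above.

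The H2A variants include H2AX, phosphorylated at DNA breaks, H2AZ1 and H2AZ2, which encode H2A.Z of active promoters, and H2AJ. None passed the test against the control. H2AX read 4.66 and 4.84 with hsa-miR-205-5p, 5.55 and 5.42 with hsa-miR-214-3p and 5.00 and 5.07 in the control, so the groups did not overlap. The difference between the microRNAs passed at under 2-fold (-0.73 ± 0.16, adjusted p = 0.0246), while those from the control were -0.28 (adjusted p = 0.258) and 0.45 (adjusted p = 0.187). The 2 genes of H2A.Z had opposite signs with hsa-miR-205-5p, -0.56 for H2AZ1 (adjusted p = 0.169) and 0.15 for H2AZ2 (adjusted p = 0.504). The control arrays of H2AZ1 read 6.96 and 7.57, a spread larger than in most members. H2AJ, linked to senescent cells, differed by -0.12 and -0.19 from the control (adjusted p = 0.618 and 0.523).

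Core histone H2B. H2BC4 read 1.38 and 1.01 with hsa-miR-205-5p, 2.25 and 2.20 with hsa-miR-214-3p and 2.44 and 2.35 in the control. The hsa-miR-205-5p arrays were the lowest, and they also differed most from each other. H2BC4 fell 2.29-fold against the control (log2 -1.20 ± 0.19, adjusted p = 0.0156) and 2.04-fold against hsa-miR-214-3p (adjusted p = 0.0144). It missed the test against the control without hsa-miR-205-5p replicate 2 (-1.01, adjusted p = 0.0773) and when either hsa-miR-214-3p array was left out of the fit (adjusted p = 0.059). Between the microRNAs it was missed without hsa-miR-205-5p replicate 2 (adjusted p = 0.0687) or either hsa-miR-214-3p array (adjusted p = 0.104 and 0.102). H2BC10 fell at under 2-fold (-0.71 ± 0.15, adjusted p = 0.0321), reading 3.84 and 3.75 with hsa-miR-205-5p and 4.50 and 4.51 in the control. H2BC8 had a value of -0.76 and missed the test (adjusted p = 0.0566), as did H2BC11 at -0.58 (adjusted p = 0.0589).

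Between the microRNAs H2BC11 (-0.83, adjusted p = 0.0168), H2BC15 (-0.70, adjusted p = 0.0246) and H2BC10 (-0.59, adjusted p = 0.0361) were lower with hsa-miR-205-5p. H2BC12 was higher by its brightest probe (0.84, adjusted p = 0.0191), with 5.98 and 6.12 against 5.17 and 5.24. Its second probe had the opposite sign, and the mean of both gave 0.0036 (adjusted p = 0.987), so no direction is given for the gene. The variant H2BW2, on the X chromosome and known from testis, differed from the control by 0.32 and 0.76 (adjusted p = 0.239 and 0.0851).

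H2A and H2B genes often lie head to head, and 11 such pairs were found among RefSeq starts, with 193 to 247 bases between them. Both genes were tested in 8 pairs. With hsa-miR-205-5p, H2AC6 and H2BC4 was the one pair of the 8 in which either gene had an adjusted p under 0.05 against the control, and there both did. Partners in the other pairs did not always have like values. H2BC8 was at -0.76 beside H2AC8 at 0.24, and H2BC21 at 0.47 beside H2AC20 at -0.10. In all, 5 pairs were below 0 in both genes, 1 was above 0 in both and 2 were of opposite sign, with a median difference between partners of 0.25 log2 units. With hsa-miR-214-3p the counts were 3, 5 and 0.

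**Figure D4:**
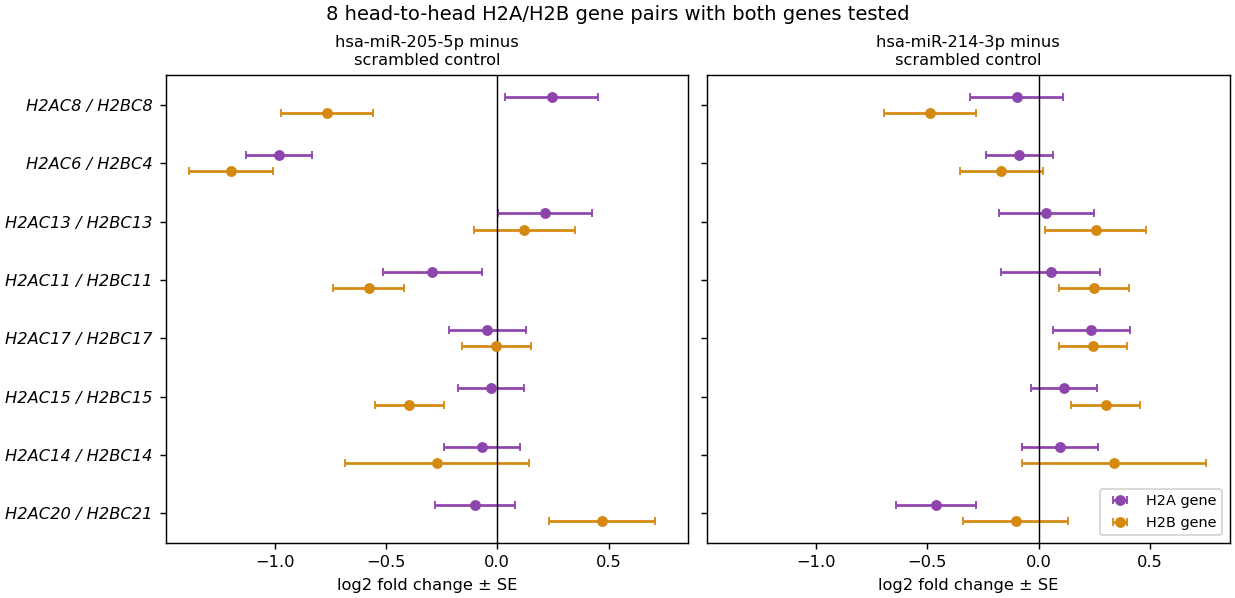
Points are log2 fold changes with SE of the H2A gene (purple) and the H2B gene (orange) of 8 head-to-head pairs, against the scrambled control. H2AC6 and H2BC4 stand apart at -0.98 and -1.20 with hsa-miR-205-5p, while their values with hsa-miR-214-3p, -0.09 and -0.17, lie within the range of the other pairs.

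Core histone H3. H3C4 read 1.43 and 0.90 with hsa-miR-205-5p, 2.25 and 2.16 with hsa-miR-214-3p and 2.43 and 2.03 in the control. The hsa-miR-205-5p arrays were the lowest, but the spread was wide, with an SD of 0.37 in that group and 0.28 in the control (n = 2 arrays each). H3C4 fell 2.09-fold against the control (log2 -1.06 ± 0.25, adjusted p = 0.0395) and 2.06-fold against hsa-miR-214-3p (adjusted p = 0.0301). The call against the control was lost when any 1 of the 6 arrays was left out, with adjusted p from 0.0517 to 0.151, and that against hsa-miR-214-3p without hsa-miR-205-5p replicate 2 (adjusted p = 0.115) or either hsa-miR-214-3p array (adjusted p = 0.149 and 0.137).

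H3C6 had the tightest replicates of the called genes. Its arrays read 4.87 and 4.88 with hsa-miR-205-5p, 5.88 and 5.88 with hsa-miR-214-3p and 5.44 and 5.54 in the control, so the control lay between the microRNAs. It was 2.01-fold lower with hsa-miR-205-5p than with hsa-miR-214-3p (log2 -1.01 ± 0.15, adjusted p = 0.00892), and 1.53-fold lower than the control (-0.61, adjusted p = 0.0432). The call between the microRNAs was lost without hsa-miR-205-5p replicate 2 (adjusted p = 0.0509) or either hsa-miR-214-3p array (adjusted p = 0.0808 and 0.0871). The difference of 0.39 between hsa-miR-214-3p and the control missed the test (adjusted p = 0.204). H3C2 (-0.76), H3C13 (-0.74), H3C3 (-0.68), H3C7 (-0.60) and H3-4 (-0.59) also passed between the microRNAs at under 2-fold, with adjusted p from 0.0181 to 0.048. Against the control none of these 5 passed in either comparison. For H3C13 the differences were -0.11 (hsa-miR-205-5p, adjusted p = 0.717) and 0.64 (hsa-miR-214-3p, adjusted p = 0.14).

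The variant H3-3A encodes H3.3, whose deposition is not limited to S phase, and was measured by 4 probes. Against the control the brightest gave 0.33 (hsa-miR-205-5p, adjusted p = 0.197) and 0.11 (hsa-miR-214-3p, adjusted p = 0.724), and no probe was called against the control. The other 3 probes gave -0.02 to 0.31 with hsa-miR-205-5p and, opposite in sign to the brightest, -0.48 to -0.22 with hsa-miR-214-3p, so no direction is given for the gene there. H3-5, an intronless copy of H3-3B, read 6.61 and 6.30 with hsa-miR-205-5p, 8.08 and 7.96 with hsa-miR-214-3p and 7.09 and 7.36 in the control. The groups did not overlap and the control lay in the middle. H3-5 was 2.95-fold lower with hsa-miR-205-5p than with hsa-miR-214-3p (log2 -1.56 ± 0.19, adjusted p = 0.006), a call lost without either hsa-miR-214-3p array (adjusted p = 0.0572 and 0.0583). Against the control it fell by 0.77 on the log2 scale with hsa-miR-205-5p (adjusted p = 0.0481), and the value of 0.79 with hsa-miR-214-3p missed the test (adjusted p = 0.0986). Since H3-3B had no matched probe, the part of H3-3B transcripts in this signal was not tested.

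Core histone H4. All H4 genes encode nearly one protein, and H4C16 is the copy outside the chromosome 1 and 6 clusters. It read -1.26 and -1.90 with hsa-miR-205-5p, 1.04 and 0.87 with hsa-miR-214-3p and 0.23 and 0.30 in the control. The groups did not overlap and the hsa-miR-205-5p arrays were far below the others. H4C16 fell 3.59-fold against the control (log2 -1.84 ± 0.25, adjusted p = 0.0121) and 5.78-fold against hsa-miR-214-3p (log2 -2.53, adjusted p = 0.00415). The probe was dim, and 1 of the 2 hsa-miR-205-5p arrays was not well above background. After normexp the values shrank to -0.58 (adjusted p = 0.0261) and -0.96 (adjusted p = 0.00483), both under 2-fold, with no filter on dim probes the test against the control was missed (adjusted p = 0.0561), and without hsa-miR-205-5p replicate 2 the value against the control was -1.52 (adjusted p = 0.0579). The value of 0.69 with hsa-miR-214-3p missed the test (adjusted p = 0.188).

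The other 11 H4 genes stayed between -0.46 and 0.25 with hsa-miR-205-5p and between -0.10 and 0.30 with hsa-miR-214-3p, and none passed against the control. H4C15 was lower with hsa-miR-205-5p than with hsa-miR-214-3p (-0.75, adjusted p = 0.0367), with 4.94 and 4.78 against 5.64 and 5.59. It is 1 of the H4 genes on chromosome 1 and a near copy of H4C14.

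Where a gene had several tested probes, they did not always give one direction. Of 9 such genes, 3 had the same sign on all probes with hsa-miR-205-5p against the control and 6 did not, and 5 of 9 had the same sign between the microRNAs. H2BC12 differed most in the latter, with 0.84 and -0.84 from its probes. H4C4 differed most against the control, with -0.16 from the bright probe and 2.08 from a dim one, whose second control array read -1.60 beside 2.82 on the first. H2AC6, H2BC18 and H4C1 had the same sign on both probes in all 3 comparisons. With hsa-miR-205-5p against the control, H2AC6 and H2BC18 were below 0 and H4C1 above it.

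**Figure D5:**
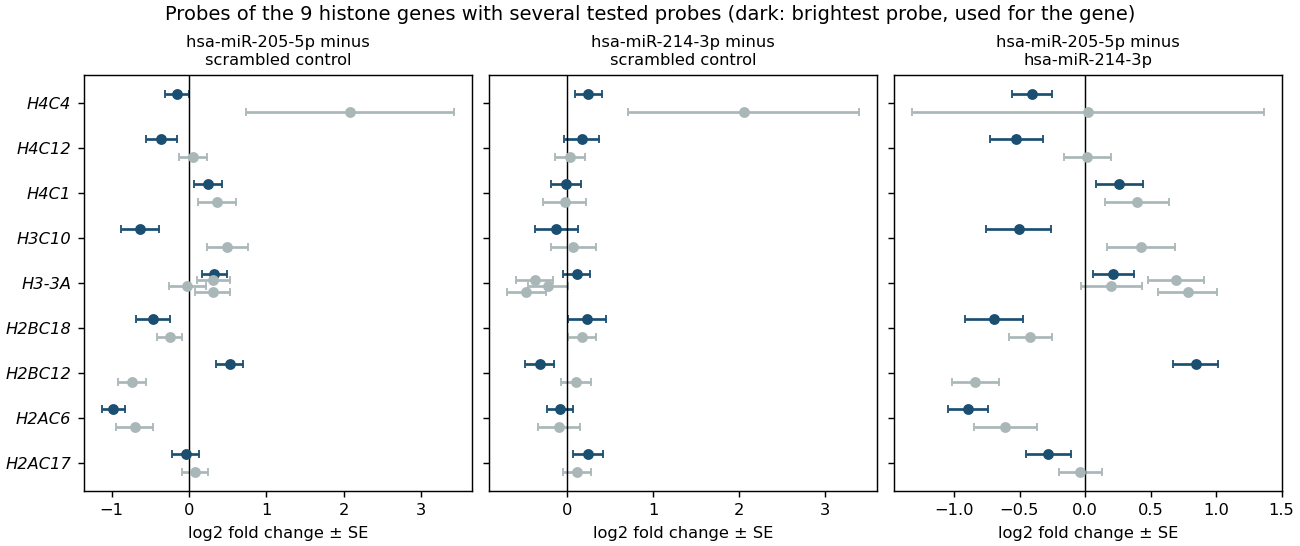
Points are log2 fold changes with SE of each tested probe of the 9 histone genes with several, the dark one being the probe used for the gene. The probes of H2BC12 lie on opposite sides of 0 in all 3 panels, and the dim probe of H4C4 lies near 2 with a wide error in the comparisons with the control.

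The genes that act on histone mRNA were followed as a list chosen with earlier results of these data known. It holds 29 genes with a probe, and 24 were tested. Against the control 2 of 24 were called lower with hsa-miR-205-5p and 0 higher, against 7.98% and 4.78% of all genes, with a list median of -0.25 against 0.08 over all genes. They were LSM10 (-1.45, adjusted p = 0.0146), a subunit of the U7 particle that cuts histone pre-mRNA, and MIF4GD (-1.05, adjusted p = 0.0162), which binds the stem-loop binding protein in translation. LSM10 and MIF4GD both lost their calls without either hsa-miR-205-5p array or either hsa-miR-214-3p array. In the absence of hsa-miR-205-5p replicate 2 no gene of any kind was called against the control. MIF4GD also lost its call without scrambled control replicate 2. Without scrambled control replicate 1 both were called, and CDK2, HINFP and ZNF473 besides. With hsa-miR-214-3p 1 of 24 was called lower (against 2.03% of all genes), CCNE1, a cyclin of S-phase entry (-1.23, adjusted p = 0.037), and the median was 0.02. That call was lost with a replicate block, with only the 4 arrays compared and with no filter on dim probes. It was also lost with the test that the study's methods name, after adjustment, and when any 1 array other than scrambled control replicate 2 was left out. Under each of these settings no gene of any kind was called in that comparison. Between the microRNAs 2 of 24 were called lower (against 11.3% of all genes), LSM10 (-1.62, adjusted p = 0.00722) and HINFP (-1.46, adjusted p = 0.00615), the factor that binds H4 promoters. Both calls were lost without either hsa-miR-214-3p array. HINFP differed from the control by -0.95 with hsa-miR-205-5p (adjusted p = 0.0253), just under 2-fold. SLBP, the stem-loop binding protein itself, differed by -0.15 and 0.06 from the control (adjusted p = 0.494 and 0.852). CASP8AP2, a factor of histone gene transcription, differed by -0.40 and -0.82 (adjusted p = 0.459 and 0.261). NPAT, the coactivator of histone genes in S phase, did not pass the filter on dim probes.

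Of 31 genes of histone chaperones, importers and remodelers 29 were tested, and their list median with hsa-miR-205-5p was -0.53. Those called lower were 7 of 29, and 0 were higher, against 7.98% and 4.78% of all genes. They were SET (-1.62), UBN1 (-1.34), ASF1B (-1.23), MCM2 (-1.04), SUPT6H (-1.03), IPO4 (-1.03) and SPTY2D1, which is given no fold because neither array with hsa-miR-205-5p read it well above background, with adjusted p from 0.0115 to 0.0433. Each of the 7 lost its call without hsa-miR-205-5p replicate 2, and all but UBN1 lost it without its replicate 1. Without either hsa-miR-214-3p array all but ASF1B lost it, and without scrambled control replicate 2 all but ASF1B and UBN1. SET lost it without scrambled control replicate 1. Under some of these settings other genes of the list were called instead, such as ANP32E and EP400 without hsa-miR-205-5p replicate 1. ASF1B hands H3 and H4 to the assembly factors, IPO4 imports them, and UBN1 is part of the HIRA complex that deposits H3.3. With hsa-miR-214-3p 1 of 29 was called lower (against 2.03% of all genes), NAP1L4, a chaperone of H2A and H2B (-1.80, adjusted p = 0.0257), a call lost under the same settings as that of CCNE1. Between the microRNAs 5 were lower (against 11.3% of all genes), SPTY2D1 (at least 1.04-fold), SUPT6H (-1.40), UBN1 (-1.36), DAXX (-1.23) and NAP1L1 (-1.03), and 2 higher (against 9.18%), ATRX (1.07) and NAP1L4 (1.02), with adjusted p from 0.00661 to 0.0252. After normexp 4 were called lower and 0 higher, and with scaling to the median 7 and 0. With the mean over the probes of a gene, ATRX and NAP1L1 lost their calls. Each gene called between the microRNAs lost its call without either hsa-miR-214-3p array. Without hsa-miR-205-5p replicate 2 all but DAXX and SUPT6H lost it, and without its replicate 1 SPTY2D1, ATRX and NAP1L4 did.

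Transcripts of S phase gave values beside those of the histones, since histone mRNA accumulates in that phase. Of 24 genes tested 3 were called lower with hsa-miR-205-5p (against 7.98% of all genes), among them FEN1 (-1.57, adjusted p = 0.00914) and MCM4 (-1.29, adjusted p = 0.0483), and 0 were higher. The 3 became 0 without hsa-miR-205-5p replicate 2, and 1, FEN1, without its replicate 1, either hsa-miR-214-3p array or scrambled control replicate 2. The list median was -0.28. With hsa-miR-214-3p the median was -0.30 and 1 gene of 24, CCNE1, was called lower, against 2.03% of all genes, with the limits given above. Between the microRNAs the S phase median was 0.14, with 3 of 24 genes called lower (against 11.3%), among them RRM2 (-2.64, adjusted p = 0.0284) and FEN1 (-1.45, adjusted p = 0.0057), while the histone median was -0.28. These 3 became 0 without either hsa-miR-214-3p array and 1, FEN1, without either hsa-miR-205-5p array. PCNA, the sliding clamp of replication, differed by 0.92 and 0.49 from the control (adjusted p = 0.335 and 0.686). Without scrambled control replicate 1 PCNA was called higher with hsa-miR-205-5p. The part of a changed S phase share in the histone values was not tested. Of the histone-like genes outside the members, CENPA, the H3 of centromeres, was read well above background by neither array with hsa-miR-205-5p. A bound is therefore given, set against the lowest signal well above background on those arrays. CENPA was at least 1.92-fold lower with hsa-miR-205-5p than with hsa-miR-214-3p (adjusted p = 0.0126), a call lost without either hsa-miR-214-3p array, and the value against the control missed the test (adjusted p = 0.0527). MACROH2A1 differed from the control by 0.46 with hsa-miR-205-5p (adjusted p = 0.0871).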

How the data were processed

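RNA of transfected MDA-MB-231 cells was labeled with Cy3 and hybridized to 1 Agilent array per sample. Per the labels, the submitters' processing notes name Agilent Feature Extraction 11.0. The processed signal, median signal and local background were deposited by the authors as linear intensity values, the processed signal with background already subtracted. The authors also deposited log2 values per array in a table, which had a median of 3.49 in every column and the same sorted values in all, as after quantile normalization. Its columns correlated with the log2 processed intensity of their arrays at 0.997 or more (Pearson, across probes), and it was used as an alternative. The array annotation uses GRCh37, and the coordinates printed are those of RefSeq (GRCh38.p14).

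Control and outlier spots were left out, spots of a probe were averaged, and each array's 75th percentile was subtracted from log2 intensity. A probe was kept if any group had both its arrays well above background for it (18464 of 50599 probes). The 3 groups were compared with limma 3.58.1 (R 4.3.3, with 3 residual and 2.47 prior degrees of freedom) in 1 fit of the 6 arrays, with Benjamini-Hochberg adjustment over the kept probes. A gene was read from its brightest kept probe, and called at an adjusted p under 0.05 and at least 2-fold. For the arrays the study's methods give a p limit of 0.05 and a 2-fold limit, and for its statistics in general they name a two-tailed t-test. That test (the methods' t-test, with equal variances taken) was run at those limits as an alternative, beside other background corrections, normalizations, filters, thresholds and sample choices. Normexp (offset 50) was applied to the median signal. The fit was first tested on simulated data. The number of arrays limits the precision.

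The members and gene lists were chosen with earlier results of these data known. Probes of histone pseudogenes or antisense transcripts (4) were left out. Named by rule were every called member, H3-3A, H3-3B, H2AZ1, H2AZ2, H2AX, H2AJ and H1-10, the cluster gene of each family with the greatest absolute change per comparison (among genes read well above background by all 4 arrays in it), every called gene of the lists, and NPAT, SLBP, CASP8AP2, CENPA and PCNA. Values of some single genes that the rule names are not reported here. Other genes were named after their values were seen, mainly members past an adjusted p under 0.05 at less than 2-fold, members near that limit and genes with several probes.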

Additional observations from a re-analysis of the deposited data

How the results depend on the processing

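With hsa-miR-205-5p against the control the 3 genes called lower became 10 with scaling to the median, 8 with no limit on fold, 1 with only the 4 arrays compared, 0 with no filter on dim probes and, with the methods' t-test, 2 at its unadjusted limit and 0 after adjustment, and 0 to 3 when 1 array was left out. The median of -0.19 became -0.36 after normexp, -0.57 with scaling to the median and -0.0507 with no filter, and -0.20 to -0.13 when 1 array was left out. Between the microRNAs the 5 called lower became 8 with scaling to the median, 18 with no limit on fold (and 2 higher), 3 after normexp, 2 with no filter and, with the methods' t-test, 4 unadjusted and 1 after adjustment, and 1 to 6 when 1 array was left out, and the median of -0.28 became -0.51 with scaling to the median, -0.163 with no filter and -0.34 to -0.23 when 1 array was left out. With hsa-miR-214-3p against the control the counts were 0 under each of the 21 alternatives, but in 9 of them 0 genes of any kind were called, so those say nothing of stability. The median of 0.17 became -0.0426 after normexp and 0.00015 with scaling to the median, and 0.0263 to 0.17 when 1 array was left out. The causes were not tested.

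Scaling to the median shifted the median of all genes by -0.39, -0.17 and -0.22 in the 3 comparisons (hsa-miR-205-5p against the control, hsa-miR-214-3p against the control, and one microRNA against the other). It shifts every gene of an array alike, so the histone median minus that of all genes stayed at -0.26, 0.18 and -0.40 by construction. Alternatives that change only the test, the threshold or the group not compared leave this difference unchanged as well. Over all alternatives, including those that cannot move it, that difference ranged from -0.43 to -0.17, from 0.01 to 0.18 and from -0.47 to -0.28. After normexp all genes gave 619 lower and 133 higher calls, 208 and 37, and 652 and 415. With no filter on dim probes they gave 206 and 114, 0 and 0, and 726 and 522, and without hsa-miR-205-5p replicate 2 the comparison with the control gave 0 and 0.

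The replicate numbers are shared by the groups, but the deviations of same-numbered arrays correlated at 0.11, 0.01 and -0.05, so the numbers were not taken to pair them. With a replicate block the counts called lower were 3, 0 and 5, and over all genes the lower and higher calls were 843 and 498, 0 and 0, and 1290 and 1088, so the block ended each call of hsa-miR-214-3p against the control. Of 1758 values of named genes under the alternatives 1676 kept their side of the call, 37 gained a call and 45 lost one. Of the values called in the reported fits, 121 kept the call and 45 lost it. Of the 1676, 25 that were called under neither setting changed sign, and 0 called values reversed. A block for slide or scan was not run, since the arrays shared 1 slide and 1 scan. Genes of dim signal, such as H4C16, are limited by background.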
